A study of Mus musculus with 12 samples.

Results

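The loci described here are transcribed regions that the authors' long-read table lists as new, that is, without a match to an annotated mouse gene, and whose GO annotation does not name proline dehydrogenase activity. Of 31208 rows, 8652 are new loci, 1184 of these carry the proline dehydrogenase term, and 7468 do not. The level limit of 1 CPM (the count scaled to the total of the mouse) in at least 4 of the 12 mice was met by 3730 of the 7468 loci, 1035 with a GO term and 2695 without any. Another 3738 lay under the limit, of which 9 had no count in any mouse. The loci were thus selected on their own CPM, with no use of the groups, and their levels are a description. At the edge, ONT.19152, ONT.11643 and ONT.988 were just inside, with a 4th highest value of 1.0032 CPM, and ONT.20781, ONT.17939 and ONT.5006 just outside, with 0.9959 CPM.

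RNA was taken from the brains of C57BL/6 mice aged 8 weeks, numbered 1 to 4 in each of 3 groups. The groups were sham mice, vehicle-treated mice whose brains were taken 6 h after ischemia, and lactate-treated mice whose brains were taken at the same time. As preconditioning, vehicle or lactate was injected i.c.v. the day before occlusion of the middle cerebral artery. The methods name the D form of lactate while the labels name lactate only, and no injection is given for the sham mice, so injection and ischemia cannot be told apart in comparisons with sham. Long cDNA made by PCR was read on nanopores, and all values are counts of such reads that were not adjusted for transcript length.

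Genome regions outside the annotation can be transcribed for several reasons. Processed copies of messenger RNAs, inserted by reverse transcription, often resemble abundant genes such as those of ribosomal proteins. Endogenous retroviruses keep coding regions such as gag, pol and env between 2 long terminal repeats, and most are silenced in adult tissue. Other unannotated reads come from introns, from extended ends of genes or from long non-coding RNA. A GO term reaches a new locus only through the resemblance of its sequence to a described protein, so a best hit names the most similar protein in a database and not a gene known to lie at the locus.

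Total counts were 7363426 to 8971103 in sham, 6815920 to 10677224 in vehicle-treated and 7395179 to 8624354 in lactate-treated mice, so 1 CPM was 6.82 to 10.7 counts. Markers of neurons summed to 4150 to 4320 CPM in sham, 3460 to 5360 CPM in vehicle-treated and 3710 to 4120 CPM in lactate-treated mice, as the label of brain requires. The 4 neutrophil markers summed to 0.446 to 2.77 CPM in sham, 8.66 to 71.6 CPM in vehicle-treated and 16.3 to 39.7 CPM in lactate-treated mice. Choroid plexus markers reached 1830 CPM in one vehicle-treated mouse, against 1.22 to 4.35 CPM in sham and 9.46 to 18.4 CPM in lactate-treated mice. Of the 12 mice, lactate 2 and vehicle 1 stood apart, being the highest for 928 and 631 of the 3730 loci, and values without them are given where they change a call. The part of these cell types in the results was not tested, and in whole tissue fewer cells of a type and less RNA per cell cannot be told apart.

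Loci with and without GO annotation differed in what else was known of them. A best hit in the NR protein database was listed for 98.2% of the loci with GO terms and for 56.0% of those without, and a Swiss-Prot hit for 75.1% and 9.42%. A Pfam domain was listed for 53.0% of the annotated loci and for 0.482% of the others. The annotated loci also carried more counts, with a median of 5.28 CPM over the 12 mice against 2.02 CPM for loci without GO terms and 12 CPM for known genes at the same limit. In all 12 mice the limit was met by 725 of the 1035 annotated loci (70.0%) and by 1169 of the 2695 others (43.4%). Most described loci were scarce, with 70.2% under 5 CPM, while 159 reached 100 CPM, 128 with and 31 without GO terms.

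The loci with the most counts resembled housekeeping genes. ONT.3383 and ONT.11701, whose best hit is Gapdh of glycolysis, had means of 2540 and 2380 CPM, and ONT.20766, which resembles the prolyl isomerase Ppia, had 2360 CPM. ONT.11607 (Gapdh), ONT.12406 (Rps29), ONT.3695 (Cox7c, a subunit of cytochrome c oxidase) and ONT.12556 (Rps23) had 1330, 942, 867 and 714 CPM. None of these 7 passed the test in any comparison, although ONT.20766 was 0.33 log2 units lower in lactate-treated than in sham mice with an adjusted p of 0.0256, below the fold change limit. ONT.6224, with GO terms and 943 CPM, passed no test either. ONT.1401 (1220 CPM) was the one locus without GO terms among the 10 with the most counts.

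Among the 696 described loci whose Swiss-Prot hit names a known gene of the table other than Nedd4, 666 had GO terms. They pointed to 612 genes, and 103 of them to 63 genes of ribosomal proteins. A locus had fewer counts than its gene in 659 of the 696 cases, with a median of 8.91% of the gene's counts and quartiles of 3.3% and 24.7%.

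Some of these loci cannot be separated from near-identical rows. Of 1119 described loci with at least 20 counts in every mouse, 59 lay within 5% of another row in every mouse, 20 with and 39 without GO terms, and 15 of the 59 lay within 5% of a known gene. ONT.12406 followed Rps29 (942 and 947 CPM) and ONT.18559 followed Rps12-ps3 (281 and 283 CPM). The Gapdh-like ONT.3383 and ONT.11701 also moved together and may share reads. In sham they had 19152, 21271, 20616 and 21634 counts and 17963, 19880, 19322 and 20244 counts. A group of 15 loci without GO terms rose and fell together with the known genes Ccdc36 and Timm22. Its pairwise correlations over the 12 mice were at least 0.9996, as a description of rows that may hold the same reads. Values of all loci of this kind are uncertain, and the 15 were read as one signal.

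Summed over all 7468 loci, the new loci took 7.67, 8.74, 7.66 and 8.05% of all counts in sham mice, 8.4, 7.29, 8.31 and 8.71% in vehicle-treated and 9.03, 9.27, 9.08 and 9.1% in lactate-treated mice. Every lactate-treated mouse was above every other mouse, and the group means were 8.03% ± 0.508, 8.18% ± 0.616 and 9.12% ± 0.102 (SD, n = 4). This separation was lost when the 15 coupled loci were counted once, with 7.91% in sham 2 and 7.73 to 8.22% in lactate-treated mice, and without the 7 best-hit families described below, with 8.39% in sham 2 and 8.29% in lactate 2. The described loci with GO terms did not share this order, with 5.62% ± 0.31 in sham, 5.52% ± 0.176 in vehicle-treated and 5.67% ± 0.133 in lactate-treated mice and overlapping groups. Those without GO terms were at 2.14, 2.6, 2.21 and 2.24% in sham, 2.87, 1.81, 2.5 and 2.86% in vehicle-treated and 3.36, 3.38, 3.08 and 3.25% in lactate-treated mice. Here too all lactate-treated mice were highest. Counting the 15 coupled loci once lowered the level of the loci without GO terms to 1.57% ± 0.133 in sham, 1.68% ± 0.228 in vehicle-treated and 2.07% ± 0.189 in lactate-treated mice, still without overlap between the lactate-treated mice and the others. These sums hold 943 of the 978 described loci of the 7 families. The families took 0.976% in lactate 2 and 0.277% in vehicle 1, further apart than 3.38% and 2.87% for all loci without GO terms. The separation of the loci without GO terms is therefore not shown to hold outside the families. Over the same mice, mitochondrially encoded genes took 1.63, 1.73 and 1.23% on average, and their part in the sums was not tested.

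**Figure D1:**
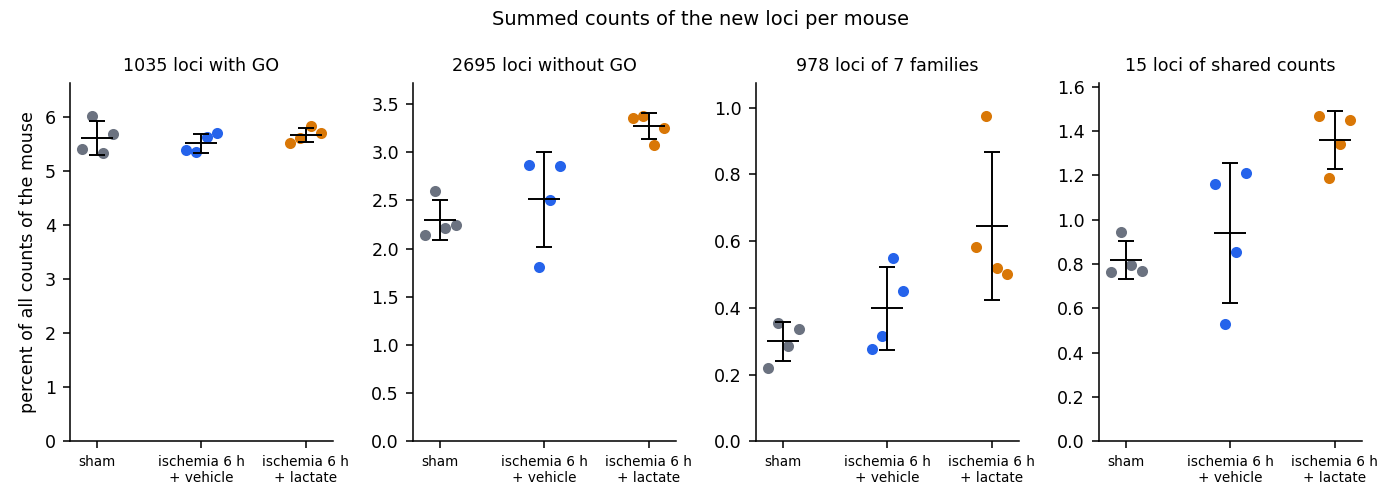
Share of all counts (percent) of each mouse for sets of new loci, with one panel per set, points for single mice by group, and horizontal lines and bars for the mean and SD (n = 4). Loci with GO annotation overlap between the groups, while those without it are highest in the 4 lactate-treated mice at 3.08 to 3.38%.

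To examine which loci changed after ischemia with vehicle, the 3124 described loci with enough counts in these 8 mice were compared with sham. A call is an adjusted p under 0.05 in edgeR together with a fold change of at least 1.5. Upregulated were 53 described loci (1.7%), against 1.29% of all 17019 features tested, and downregulated were 4 (0.128%) against 0.182%. By annotation, 27 of 953 loci with GO terms rose (2.83%), and 26 of 2171 without (1.2%), and 2 fell in each set. Of the 27, 22 shared one best hit, the predicted mouse protein mCG1044012, and outside that family 5 of 931 annotated loci rose (0.537%). At an unadjusted p, 330 were higher (10.6%) and 123 lower (3.94%), where 6.5% and 3.01% of all features were. DESeq2 called 89 up and 8 down, against 2.26% and 0.4% of all features, and limma 94 and 7, against 1.93% and 0.3%. CPM of the groups did not overlap for any of the 53 and 4 loci. The share over all called features is not given here, so nothing is read from this. Of the 53, 13 had been tested only because the 4 vehicle-treated mice reached 1 CPM, and such loci had to differ. The count also depended on single mice. Without vehicle 1 it was 75 up and 15 down, 44 up without GO terms and 29 up in the 7 families described below, while without any one of vehicle 2, vehicle 3, vehicle 4, sham 1, sham 3 and sham 4 it was 27 to 34 up. Without sham 2, the loci up without GO terms were 16. Loci up with GO terms stayed at 23 to 31 whichever mouse was left out.

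The mCG1044012 family holds 22 described loci, and all 22 rose in both ischemic groups. In each comparison 20 of them were tested on their level in more than 1 group, and ONT.8607 and ONT.10291 only because the ischemic mice reached 1 CPM. Its GO terms are those of retroviral proteins, with nucleic acid binding at 22 loci, virion assembly at 21, zinc ion binding at 19, RNA-DNA hybrid ribonuclease activity at 10 and DNA integration at 9. The Pfam domain of matrix protein p15, the part of gag that lies under the viral membrane, was listed at 19 of the 22 and at 1 other described locus. The family summed to 0.00765% ± 0.00124 of all counts in sham, 0.133% ± 0.0618 in vehicle-treated and 0.112% ± 0.037 in lactate-treated mice. This family was singled out after its values had been seen.

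ONT.5104 had 35, 38, 36 and 31 counts in sham, 534, 503, 1124 and 869 in vehicle-treated and 523, 1017, 662 and 464 in lactate-treated mice. The groups of ischemic mice overlapped with each other and lay far above sham. In CPM these are 4.39 ± 0.464, 95.6 ± 44.7 and 83.4 ± 29.0 (SD, n = 4), a log2 fold change of 4.47 (SE 0.33, adjusted p = 2.04e-05) with vehicle and of 4.28 (SE 0.25, adjusted p = 2.59e-07) with lactate. ONT.8607, with 3, 4, 7 and 3 counts in sham, had 88, 70, 211 and 172 with vehicle and 91, 160, 98 and 69 with lactate, for log2 fold changes of 5.0 and 4.61. Counts of ONT.14470 were 20, 17, 19 and 14 in sham, 300, 235, 583 and 482 with vehicle and 254, 482, 320 and 240 with lactate, for 4.54 and 4.23. The smallest response of the family was that of ONT.10291, with 3, 3, 5 and 6 counts in sham, 24, 13, 33 and 22 with vehicle and 23, 34, 32 and 29 with lactate, or 2.39 and 2.79 on the log2 scale. None of these loci overlapped between sham and either ischemic group.

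Over the family the log2 fold change had a median of 4.21 with vehicle (2.39 to 5.0, adjusted p from 2.04e-05 to 0.0125), against 0.003 over all features tested. With lactate the median was 3.90 (2.79 to 4.61, adjusted p from 1.82e-07 to 0.000213), against -0.03. Both use the same sham mice. Between the ischemic groups the family's median was -0.32 and ranged from -0.42 to 0.38, and 0 of 22 passed edgeR's test, 0 at an unadjusted p. Vehicle 3 was the highest mouse at 17 of the 22 loci, vehicle 4 at 3, and lactate 2 and lactate 3 at 1 each. The loci rose and fell together over the 12 mice, with a median pairwise r of 0.9948, and of 0.9427 after the group means had been subtracted. No locus of the family lay within 5% of another row, but reads of near-identical proviruses may still have been shared among them, so the 22 are not separate pieces of evidence. Neutrophil markers moved in the same direction, as given above, and their part was not tested.

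**Figure D2:**
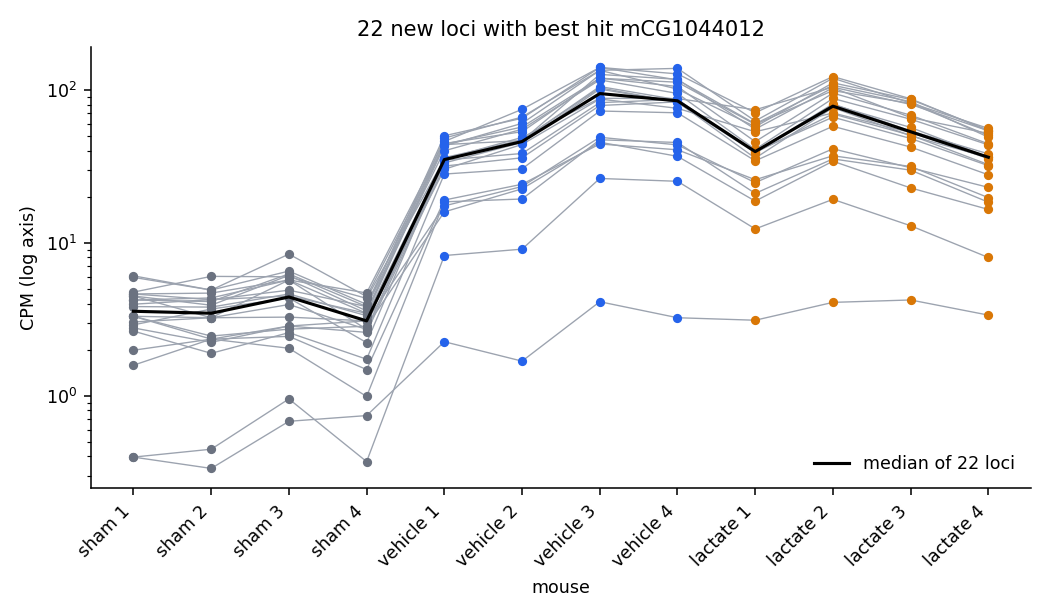
Level of each of the 22 mCG1044012 loci in each of the 12 mice, on a log axis of CPM, with one grey line per locus, a black line for their median and mice ordered by group and number. Every locus is lower in the 4 sham mice than in the 8 ischemic mice, and vehicle 3 is highest for 17 loci.

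By the likeness of their log2 levels over the 12 mice to the median of the family, the nearest of 18112 rows outside it was Olfr1033, annotated as an odorant receptor gene, with an r of 0.9967. Olfr1033 had 12, 17, 20 and 16 counts in sham, 211, 204, 407 and 306 with vehicle and 215, 345, 254 and 192 with lactate. Its log2 fold changes were 4.14 (SE 0.33, adjusted p = 2.04e-05) and 3.97 (SE 0.24, adjusted p = 3.53e-07). Next came ONT.15552 and ONT.5263, which share the mCG1044012 best hit but are listed as lncRNA, with 0.9941 and 0.9929, and then ONT.17093 and ONT.11493, described loci without GO terms whose best hit is mCG1028680, with 0.9871 and 0.9818. ONT.17093 had 13, 7, 6 and 6 counts in sham, 104, 125, 253 and 183 with vehicle and 160, 212, 143 and 112 with lactate, a 21.1-fold and 19.8-fold rise. ONT.11493 had 20, 20, 11 and 17, then 93, 81, 207 and 131, and 82, 153, 90 and 86 counts, a 7.67-fold and 6.14-fold rise. After these stood Socs3, an inhibitor of cytokine signalling that cytokines induce, with 0.9658, and Ctla2a with 0.964. Group means alone give high correlations here, so they are descriptions over 12 mice.

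Other loci of retroviral kind, also chosen after their values had been seen, differed among themselves. All 3 loci with the best hit LOC117697212, with terms of nucleic acid binding and ribonuclease activity, rose in both ischemic groups. ONT.10727 had 2, 9, 2 and 3 counts in sham, 76, 35, 58 and 38 with vehicle and 30, 65, 50 and 38 with lactate, or 3.62 and 3.51 on the log2 scale. ONT.14158 (2.97 and 2.85) and ONT.9940 (2.38 and 2.18) did likewise, each without overlap with sham. ONT.14037, which holds both the p15 and the P30 domain of gag, had 829, 883, 830 and 800 counts in sham, 1278, 1255, 1096 and 887 with vehicle and 1045, 1347, 1310 and 1365 with lactate. It was upregulated with lactate (0.63, SE 0.10, adjusted p = 0.00139), while with vehicle its log2 fold change was 0.43 (adjusted p = 0.169). Of 5 described loci with an envelope protein as best hit, 1 was called with lactate, and the median of the 5 was -0.02 on the log2 scale. This 1 locus, ONT.15756, which resembles the envelope protein of murine leukemia virus, had log2 fold changes of 0.92 (SE 0.13, adjusted p = 0.00074) with lactate and 0.54 (adjusted p = 0.182) with vehicle. The difference between these responses was not tested beyond the comparison of the ischemic groups, in which neither locus passed.

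Loci that resemble 2 other families of mobile elements passed no test, at numbers too small to be read against the 1.29% and 7.88% of all features up against sham. IgE-binding protein, the best hit of 41 described loci, derives from intracisternal A particles, a family of endogenous retroviruses of the mouse. Of the 41, edgeR called 0 in any comparison, with 3 (7.32%), 2 (4.88%) and 0 higher at an unadjusted p, beside 6.5, 11.9 and 3.76% of all features, and medians of -0.13, 0.11 and -0.0006 on the log2 scale with vehicle against sham, lactate against sham and lactate against vehicle. The one with the most counts was ONT.3245 at 68.0 CPM, with log2 fold changes of 0.67 (SE 0.24, adjusted p = 0.248) and 0.33 (SE 0.23, adjusted p = 0.4) against sham. Of 5 loci that resemble LINE-1 proteins, which copy themselves through RNA, 3 were tested with vehicle and 4 with lactate against sham, and edgeR called 0, also 0 at an unadjusted p. With lactate against vehicle edgeR called 0 of 4, and 1, ONT.4405, was lower at an unadjusted p, by a log2 difference of -1.06. ONT.4405 had 0, 0, 1 and 0 counts in sham, 8, 12, 17 and 19 with vehicle and 5, 10, 8 and 4 with lactate. It reached 1 CPM in 0 sham, 3 vehicle-treated and 2 lactate-treated mice, short of the 4 of 8 needed for a test against sham, and its pooled ratios to sham were 53.9 (95% interval 9.29 to 2170) and 27.1 (4.46 to 1110), exact intervals that cover counting error only.

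Of the 53 loci that rose with vehicle, 22 belong to the mCG1044012 family, 5 to the best hits LOC117697212 and mCG1028680, 14 to the 7 best-hit families and 12 to none of these. ONT.11702, which has no GO term, had 0, 1, 1 and 1 counts in sham, 18, 40, 37 and 25 with vehicle and 27, 33, 25 and 13 with lactate. Its pooled ratio was 38.5 with vehicle (95% interval 12.9 to 189) and 32.7 with lactate (10.9 to 161), and edgeR gave adjusted p-values of 0.000471 and 0.000146. ONT.20178 had 0, 4, 1 and 0 counts in sham, 11, 29, 56 and 19 with vehicle and 26, 210, 23 and 10 with lactate. Its log2 fold changes were 4.44 (SE 0.79, adjusted p = 0.0143) and 5.62 (SE 1.14, adjusted p = 0.00739), and with lactate most counts came from mouse 2. ONT.11702 and ONT.20178 were under 1 CPM in every sham mouse and entered both tests only through the group in which they were high. ONT.18410, with GO terms and the best hit rCG63686, had 15, 28, 19 and 19 counts in sham, 55, 36, 92 and 41 with vehicle and 62, 129, 46 and 80 with lactate, for 1.46 (SE 0.32, adjusted p = 0.0448) and 1.98 (SE 0.30, adjusted p = 0.00124). Also with GO terms, ONT.6558, which resembles the transcriptional regulator Tsc22d1, had 26, 42, 40 and 45 counts in sham and 127, 68, 71 and 61 with vehicle, a log2 fold change of 1.05 (SE 0.23, adjusted p = 0.0429). Tsc22d1 itself had 0.21 (adjusted p = 0.489). The call of ONT.6558 was lost whichever mouse was left out, and that of ONT.18410 with vehicle when any mouse but vehicle 1 was left out. ONT.20178 lost its call with vehicle without sham 1, sham 3 or sham 4.

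The 4 downregulated loci with vehicle were ONT.3650, ONT.12057, ONT.14656 and ONT.10105. ONT.12057 resembles Rtf1, a factor of transcript elongation, and had 103, 214, 94 and 114 counts in sham, 34, 55, 31 and 37 with vehicle and 59, 46, 65 and 60 with lactate. It fell by 1.70 on the log2 scale (SE 0.30, adjusted p = 0.0135) with vehicle and by 1.13 (adjusted p = 0.00888) with lactate, whereas the gene Rtf1 had 0.08 and -0.02. ONT.3650 resembles Dlg4, which encodes the postsynaptic scaffold PSD-95, and had 14, 54, 17 and 23 counts in sham and 6, 7, 9 and 4 with vehicle, a log2 fold change of -2.01 (SE 0.45, adjusted p = 0.0491). That call depended on the processing, since it was lost whichever mouse was left out, and its adjusted p ranged from 0.00854 to 0.134 over the alternatives and was over 0.05 in 11 of 15. ONT.14656 and ONT.10105 have no GO term and fell by 1.52 (adjusted p = 0.0228) and by 1.30 (adjusted p = 0.02), calls that were lost without any one sham mouse or vehicle 3. The call of ONT.12057 with vehicle was lost without vehicle 3.

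The lactate-treated mice were compared with the same sham mice. Upregulated were 596 of 3297 described loci (18.1%), against 7.88% of the 17262 features tested, 3.99% of known genes and 55% of the new loci with the proline dehydrogenase term (226 of 411), and downregulated were 41 (1.24%) against 2.52%. By annotation, 79 of 962 loci with GO terms rose (8.21%) and 8 fell, while 517 of 2335 without GO terms rose (22.1%) and 33 fell. At an unadjusted p, 917 were higher (27.8%) and 173 lower (5.25%), where 11.9% and 5.65% of all features were. DESeq2 called 574 up and 45 down, against 7.87% and 2.66% of all features, and limma 562 and 53, against 7.58% and 2.72%. CPM did not overlap between the groups for 551 of the 596 and 36 of the 41 loci, and nothing is read from these counts without the share over all called features. The limit on low counts had let 98 of the 596 in through the lactate-treated mice alone, and 10 of the 41 through sham alone.

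Most of the surplus without GO terms came from loci of a few best hits. The 7 NR best hits with at least 50 described loci each included the Chpt1 protein (294 loci), mCG1045525 (230), rCG56442 (146), mCG145372 (113), mCG147230 (83) and mCG1042149 (58), and the 7 were grouped after their values had been seen. They hold 978 described loci (26.2%), 35 of them with GO terms, and the same best hits cover 1125 of the 1184 loci with the proline dehydrogenase term (95%). With lactate 415 of 806 rose (51.5%) and none fell, which is 69.6% of all described loci that rose. Of the 806, 73 had been tested only because the lactate-treated mice reached 1 CPM, and 67 of these were called, as such loci had to differ. Of the others 348 of 733 rose (47.5%). Outside the 7 families 181 of 2491 rose (7.27%), with 39 of 908 annotated loci outside the mCG1044012 family as well (4.3%) and 120 of 1561 loci without GO terms (7.69%). The 181 include the 22 mCG1044012 loci and the 15 coupled loci. Of all features 7.88% rose, a share that itself holds the 415 family loci and the 226 with the proline dehydrogenase term. Known genes were at 3.99%. With vehicle, 14 of 670 loci of the families rose (2.09%), 7 of them tested only through the vehicle-treated mice, and 183 were higher at an unadjusted p (27.3%), where 6.5% of all features were.

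Median log2 fold changes gave the same picture. In the 7 families they were 0.50 with vehicle and 1.14 with lactate against sham, and 0.59 with lactate against vehicle. For loci without GO terms outside the families they were -0.04, -0.04 and 0.03, and for all features 0.003, -0.03 and -0.03. The genes Chpt1 and Nedd4 themselves passed no test. Chpt1, which makes phosphatidylcholine, had log2 fold changes of 0.33 (adjusted p = 0.56) and 0.06 (adjusted p = 0.91) against sham. A Swiss-Prot hit to the ubiquitin ligase NEDD4 was listed for 230 described loci. With lactate 107 of 181 rose (59.1%), against 7.88% of all features. Not all were tested on more than 1 group, since ONT.3164 was tested only through the lactate-treated mice. The gene Nedd4 had -0.12 (SE 0.12, adjusted p = 0.558).

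**Figure D3:**
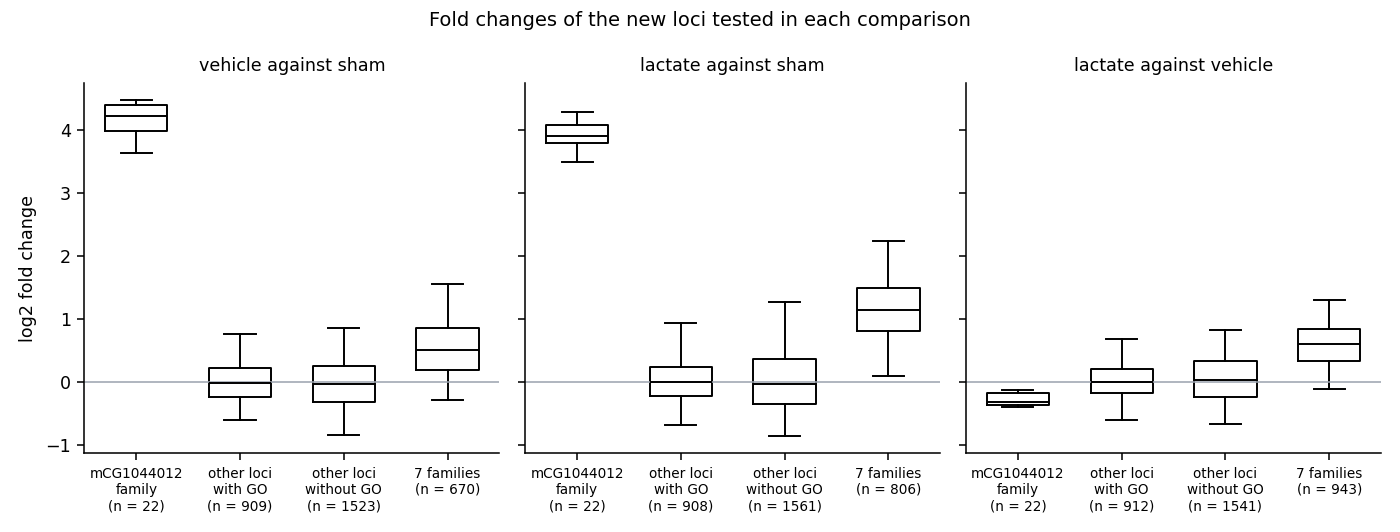
Log2 fold change (edgeR) in the 3 comparisons for the mCG1044012 family, the other loci with GO annotation, the loci without it outside the 7 best-hit families, and the 7 families, with boxes for the quartiles, a line for the median and whiskers from the 5th to the 95th percentile of loci. The mCG1044012 family lies at medians of 4.21, 3.90 and -0.32, the 7 families at 0.50, 1.14 and 0.59, and the other sets near 0.

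Lactate 2 stood apart in these families. The 7 families took 0.221, 0.353, 0.286 and 0.336% of all counts in sham mice, 0.277, 0.316, 0.548 and 0.451% with vehicle and 0.583, 0.976, 0.52 and 0.502% with lactate. It was far above the rest, and the other lactate-treated mice overlapped with vehicle 3. Of the 978 loci, 644 (65.8%) were highest in lactate 2, against 205 of the 1752 loci without GO terms outside the families (11.7%) and 7.37% of known genes. Without lactate 2, 218 loci of the families were called up, and without lactate 1, sham 1 and sham 3, 276, 243 and 242, so that leaving out any of these 4 mice lowered the count by over 1.5 times. Of all described loci, 340 were called up without lactate 2, 53 with and 287 without GO terms, 373 without sham 1 and 372 without sham 3. Loci down numbered 15 to 25 without lactate 1, 2 or 3 or sham 1, 3 or 4. What sets this mouse apart was not tested.

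**Figure D4:**
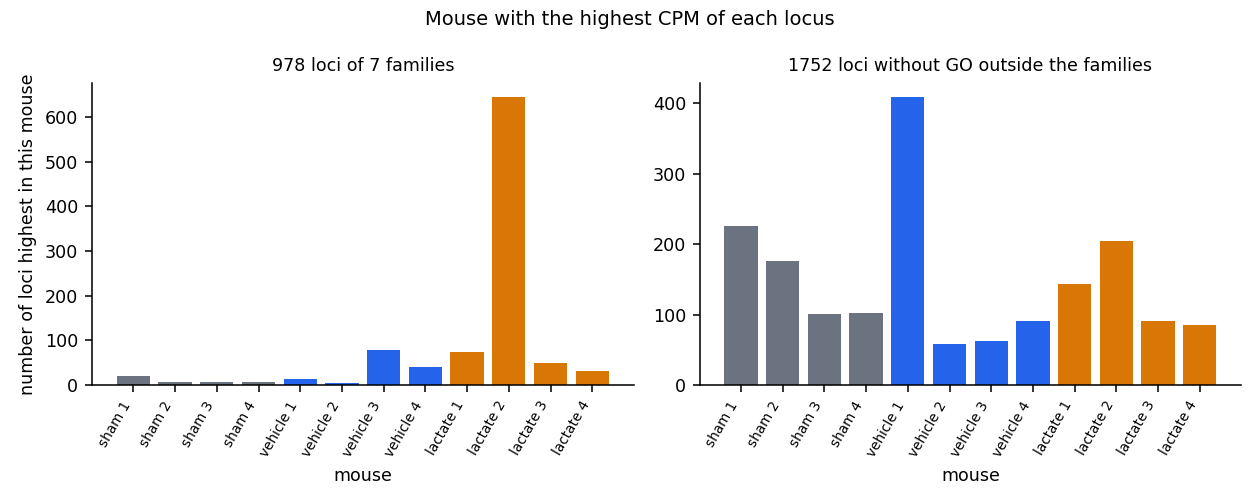
Number of loci (vertical) whose CPM is highest in each of the 12 mice (horizontal, coloured by group), for the 978 loci of the 7 best-hit families (left) and the 1752 loci without GO annotation outside them (right). Lactate 2 is the highest mouse for 644 and 205 loci, and on the right vehicle 1 leads with 408.

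Within the families, the share of loci that rose with lactate grew with their counts. It was 33.0% under 2 CPM, 55.4% from 2 to 5 CPM, 78.8% from 5 to 20 CPM and 87.5% of the 32 loci over 20 CPM. In annotated loci the shares over the same levels were 8.47, 7.85, 7.29 and 9.15%. The last, 26 of 284, includes loci of the mCG1044012 family such as ONT.5104 and ONT.14470. In loci without GO terms outside the families the shares were 4.62, 6.09, 12.6 and 19.6%. There the highest level had 22 of 112 called, among them all 15 coupled loci, which were read as one signal. Growth past 20 CPM is thus not shown in that set. By family, 136 of 253 loci of the Chpt1 protein were up, 89 of 176 of mCG1045525, 67 of 122 of rCG56442, 51 of 93 of mCG145372, 30 of 73 of mCG147230 and 22 of 44 of mCG1042149.

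Largest by the log2 fold change with lactate was ONT.3242, a locus of the Chpt1 protein family. It had 4, 5, 3 and 8 counts in sham, 13, 66, 166 and 23 with vehicle and 78, 1021, 52 and 24 with lactate, a log2 fold change of 5.83 (SE 1.21, adjusted p = 0.0081) that rests mainly on mouse 2. ONT.3164 (NEDD4 and mCG1042149) had 2, 3, 1 and 2 counts in sham, 16, 26, 52 and 9 with vehicle and 24, 222, 10 and 9 with lactate, for 4.97 (adjusted p = 0.0131). ONT.14070 of the mCG1045525 family, which has GO terms, had 3, 1, 1 and 0 counts in sham, 14, 27, 59 and 6 with vehicle and 13, 131, 11 and 14 with lactate, for 4.94 (adjusted p = 0.00892). In each, lactate-treated and sham mice did not overlap, and lactate 2 was the highest of all mice, followed by vehicle 3. These loci, ONT.20178 and ONT.11466 were tested against sham only because all 4 lactate-treated mice reached 1 CPM, so they had to differ, and none could be tested with any one lactate-treated mouse left out. ONT.11466, without any hit, had 1, 0, 0 and 0 counts in sham and 8, 49, 12 and 11 with lactate, a pooled ratio of 80.2 (95% interval 14 to 3210).

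The coupled group of 15 loci without GO terms also rose with lactate. ONT.1401, its locus with the most counts, had 6831, 9975, 6807 and 7376 counts in sham, 14420, 4762, 8072 and 9786 with vehicle and 12771, 11675, 11856 and 14804 with lactate. In CPM these are 962 ± 101, 1100 ± 373 and 1600 ± 155 (SD, n = 4), with the vehicle-treated mice spread across both other groups. All 15 had a log2 fold change of 0.76 with lactate against sham (adjusted p from 0.00062 to 0.000674), and 0 were called with vehicle. Ccdc36 and Timm22, whose rows moved with them, had 0.76 and 0.74.

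Of the 36 downregulated loci without overlap, the largest change with lactate was that of ONT.9976, which resembles Npas4, a transcription factor that neurons induce when active. It had 15, 14, 25 and 16 counts in sham, 0, 58, 353 and 9 with vehicle and 2, 8, 0 and 4 with lactate. It fell by 2.27 on the log2 scale (SE 0.55, adjusted p = 0.0165) with lactate, and its vehicle-treated mice ran from none to the highest count of all. Npas4 itself had 168, 158, 206 and 178 counts in sham, 26, 504, 3214 and 62 with vehicle and 23, 152, 11 and 35 with lactate, and its log2 fold change was -1.69 (adjusted p = 0.0465). ONT.19175, with 23, 15, 25 and 18 counts in sham, 5, 8, 11 and 3 with vehicle and 4, 5, 6 and 2 with lactate, fell by 2.19 (adjusted p = 0.00389). ONT.17072 fell by 2.12, ONT.20118 by 1.90 and ONT.6834 by 1.76 (adjusted p from 0.00495 to 0.0204), the last one lost without lactate 2 or lactate 3. In this comparison all 5 of these loci reached 1 CPM in sham mice and in no lactate-treated mouse, so they were tested through sham alone.

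Loci that resemble a known gene were next set beside that gene. Over 649, 643 and 638 pairs tested, Pearson's r between the log2 fold changes of locus and gene was 0.52 with vehicle against sham, 0.64 with lactate against sham and 0.54 with lactate against vehicle. These are descriptions across pairs, which are not independent and may share reads. With vehicle edgeR called 1 of these loci up (0.154%) and 2 down (0.308%), where 1.29% and 0.182% of all features were called. With lactate against sham it called 13 up (2.02%) and 7 down (1.09%), where 7.88% and 2.52% of all features were, and with lactate against vehicle 0. For 0, 5 and 0 of the called loci the gene was called in the same direction. The 5 were those of Dnaja1, Xpo1, Hsph1, Hipk4 and Npas4.

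Of 11 described loci that resemble a gene named as a heat shock protein or DnaJ cochaperone, a list made after values had been seen, 11 were tested with lactate against sham and 3 were called up, those of Hsph1, Dnaja1 and Hspa8. They are given here with Xpo1 and Hsp90ab1, also chosen after their values had been seen, and nothing is read from their number. ONT.15696, which resembles Hsph1, a large heat shock protein, had 35, 25, 37 and 50 counts in sham, 71, 73, 136 and 102 with vehicle and 38, 343, 179 and 146 with lactate. Its log2 fold change was 2.26 (SE 0.47, adjusted p = 0.00787) with lactate and 1.40 (adjusted p = 0.0558) with vehicle, and lactate 1 lay within sham. Hsph1 itself had 1.6 (adjusted p = 0.00137) with lactate. ONT.18298, which resembles the cochaperone Dnaja1, had 108, 200, 136 and 225 counts in sham, 341, 131, 347 and 264 with vehicle and 265, 697, 424 and 453 with lactate, a log2 fold change of 1.48 (SE 0.25, adjusted p = 0.00245) beside 0.87 for the gene. ONT.3392, which resembles the nuclear export receptor Xpo1, had 55, 58, 68 and 87 counts in sham and 136, 250, 215 and 175 with lactate, for 1.56 (SE 0.21, adjusted p = 0.000574) beside 0.97. ONT.15724 (Hspa8) had 0.67 (SE 0.13, adjusted p = 0.00563) beside 0.55 for the gene. ONT.8625 (Hsp90ab1) stayed under the fold change limit, with 0.51 (adjusted p = 0.0133) beside 0.62.

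Other loci were called where the gene was not. ONT.13295, which resembles the splicing regulator Celf3, fell by 1.69 on the log2 scale (adjusted p = 0.0115) with lactate beside -0.08 for the gene. ONT.9184 (Hdgfl2) rose by 1.12 beside 0.004, and ONT.6886 (Rps14, a ribosomal protein) by 0.81. Whether locus and gene differ was not tested in these pairs.

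**Figure D5:**
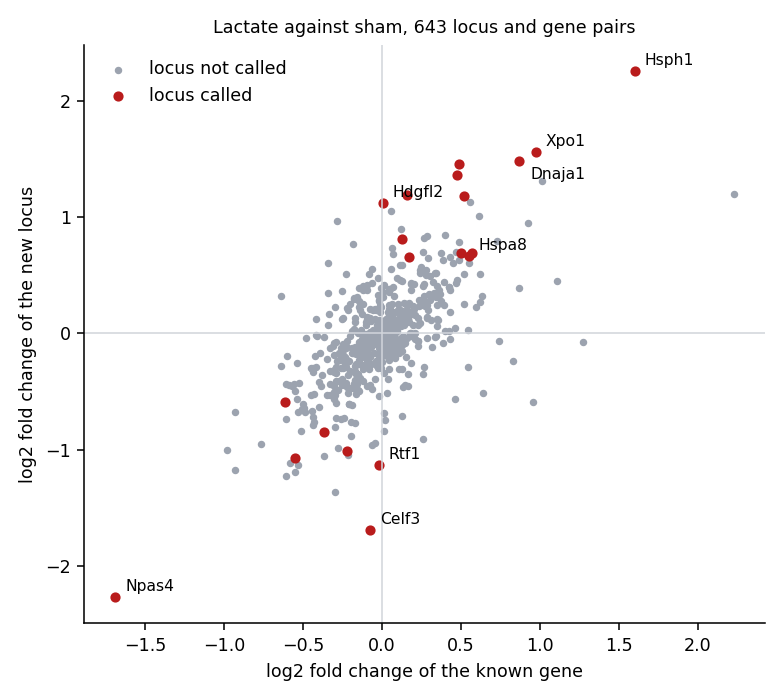
Log2 fold change of a locus (vertical) against that of the known gene it resembles (horizontal), with lactate against sham, one point per pair, red where the locus was called. Of 643 pairs (Pearson's r 0.64), 20 loci were called, with Hsph1, Dnaja1 and Xpo1 above 0 and Npas4 below 0 on both axes.

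GO groups of loci were then counted outside the mCG1044012 family, beside 1.29% of all features up with vehicle and 7.88% up with lactate. The groups keep the annotated loci of the 7 families, of which 18 of 32 rose with lactate (56.2%). Of annotated loci outside all these families 39 of 908 did (4.3%). Membrane loci, the largest group, had 1 of 357 up with vehicle (0.28%) and 30 of 366 with lactate (8.2%). Nucleic acid binding and related terms had 4 of 232 (1.72%) and 10 of 228 (4.39%) up, and retroelement terms 2 of 55 (3.64%) and 4 of 56 (7.14%). Nucleus loci had 0 of 182 and 7 of 180 (3.89%) up, ribosome and translation 0 of 158 and 2 of 157 (1.27%), and metabolism 0 of 103 and 5 of 108 (4.63%). Synapse had 0 of 94 and 2 of 96 (2.08%) up, proteolysis 1 of 93 (1.08%) and 8 of 92 (8.7%), kinase 0 of 50 and 0 of 47, and ion transport 0 of 23 and 2 of 25 (8%). Beside 0.182% and 2.52% of all features, edgeR called 1 locus lower with vehicle in each of the membrane, nucleic acid, metabolism, synapse, kinase and ion transport groups, and with lactate 4 nucleic acid, 2 nucleus, 1 membrane and 1 kinase loci. With vehicle this was ONT.12057 in the nucleic acid group. In each of the others it was the same locus, ONT.3650, whose call was lost whichever mouse was left out. At an unadjusted p, 6.5% of all features were higher and 3.01% lower with vehicle, and 11.9% and 5.65% with lactate. By that rule nucleus had 11 higher and 4 lower with vehicle, ribosome and translation 4 and 0, and metabolism 5 and 2. Synapse had 2 higher and 3 lower (3.19%) with vehicle and 6 and 10 (10.4%) with lactate. Kinase had 2 higher and 4 lower (8%) with vehicle and 3 and 5 (10.6%) with lactate, and ion transport 1 and 2 (8.7%) with vehicle and 2 and 6 (24%) with lactate. At an unadjusted p these last 3 groups, which share loci, had more loci lower than higher against sham in both comparisons. The numbers are small, and nothing is read from them. With vehicle the 1 locus called lower was ONT.3650 in all 3 groups, and with lactate 0, 1 and 0 were called lower. Of the loci with no NR hit at all, 3 of 1064 rose with vehicle (0.282%) and 45 of 1074 with lactate (4.19%), and 2 (0.188%) and 29 (2.7%) fell, where 0.182% and 2.52% of all features did.

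Lactate was finally compared with vehicle among the ischemic mice. Of 3418 described loci tested, edgeR called 0 up and 0 down, against 0% and 0.00574% of all 17419 features. At an unadjusted p, 333 were higher (9.74%) and 47 lower (1.38%), where 3.76% and 2.47% of all features were, DESeq2 called 18 up and 0 down, against 0.281% and 0.0517% of all features, and limma called 0, against 0.00574% in each direction. Of the 333, 303 had no GO term and 232 belonged to the 7 families, whose loci were highest in lactate 2 for the most part. With GO terms, 30 were higher and 16 lower at an unadjusted p.

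Some loci without overlap between the ischemic groups had the smallest unadjusted p-values, although their adjusted p-values in edgeR were 0.355 to 0.496. ONT.14479, which resembles the mitochondrial ribosomal protein Mrpl48, had 3, 2, 3 and 1 counts with vehicle and 11, 10, 12 and 10 with lactate, a log2 difference of 2.24. ONT.6125 of the Chpt1 protein family had 2, 2, 1 and 4 counts with vehicle and 11, 22, 9 and 13 with lactate, the largest difference of this comparison (2.55, SE 0.50). Both were tested only because the lactate-treated mice reached 1 CPM, and ONT.12468 below only because the vehicle-treated mice did. ONT.4908 had 13, 8, 8 and 7 counts with vehicle and 24, 30, 18 and 30 with lactate (1.53), and ONT.14829 had 35, 43, 41 and 32 against 76, 156, 97 and 72 (1.41). ONT.1063, which resembles the beta chain of the T cell receptor, had 58, 32, 43 and 42 counts with vehicle and 103, 73, 123 and 91 with lactate (1.20). Lower with lactate were ONT.12468 (Tcea2, -1.32), ONT.5249 (-1.19), ONT.3422 (-1.04), ONT.14146 (-0.99) and ONT.9740 (-0.69).

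The spread between mice limits what could be called. In annotated loci over 20 CPM the median SD of log2 levels was 0.17 in sham, 0.23 with vehicle and 0.12 with lactate, and under 2 CPM it was 0.29, 0.34 and 0.28. The vehicle-treated mice had the widest spread of the 3 groups at each of 4 levels, also in the 7 families, where it was 0.52 over 20 CPM beside 0.37 in sham and 0.42 with lactate. Of the 3730 described loci, 606 were too low to be tested with vehicle against sham, 433 with lactate against sham and 312 with lactate against vehicle.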

How the data were processed

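The authors removed short, low-quality and ribosomal RNA reads, used minimap2 to place the full-length reads on the genome, pinfish to build consensus isoforms and gffcompare to match these to the annotation. They deposited counts per gene without normalization, and the deposited CPM values are these counts scaled to the total of each mouse. How reads shared by similar loci were counted is not given in the sources used here. The submitters' processing notes name DESeq 1.10.1 and GRCm38. Positions and sequences of the loci were not used here, 4 rows that name no gene were left out, and 1 named locus and 1 best hit are not reported here.

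Groups were compared with edgeR 4.0.16 in R 4.3.3 (quasi-likelihood test, TMM, 1 CPM or more in 4 or more of the 8 mice, 2 groups per fit), fitted on all features with Benjamini-Hochberg adjustment over all of them. Every p-value measures the spread between these mice. DESeq2 1.42.0 and limma 3.58.1 (voom with quality weights) served as alternatives. Mean CPM are given ± SD. Tables were handled in Python 3.11.15 with pandas 2.3.3 and scipy 1.17.1. Loci named by rule were, per comparison, the 5 largest log2 fold changes in each direction among loci called without overlap (with lactate against vehicle, the smallest unadjusted p without overlap), the 10 with the most counts, and the 3 on each side of the level limit. Members, lists and rules were chosen with earlier results of these data known. Other alternatives were library totals, TMM from known genes, other filters and fold change limits, one fit of all 12 mice, the mouse number as a block, and leaving out each mouse.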

Additional observations from a re-analysis of the deposited data

Results flagged for a closer look

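Of 303 groups of 4 mice checked, 27 held a mouse whose gap to its nearest neighbour, as a share of the group's whole range, was above the 95% critical value. Chance flags about 1 in 20 groups. The share is given below.

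Lactate 2 was the highest mouse by such a gap in the 7 best-hit families (0.8305), in the same families at any level (0.8456), in the loci under the level limit (0.8989) and in the loci with the proline dehydrogenase term (0.8618). Of single families, mCG145372 (0.8445) and mCG1042149 (0.9093) showed it. Of single loci, ONT.3242 (0.935), ONT.14070 (0.9784), ONT.3164 (0.9138), ONT.20178 (0.9018) and ONT.11466 (0.8954) did.

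Vehicle 1 stood apart as the highest mouse for ONT.6558 (0.9536) and ONT.8625 (0.8941) and as the lowest for ONT.15756 (0.8955). Vehicle 3 was highest for ONT.9976 (0.8291) and lowest for ONT.19152 (0.8443), and vehicle 2 stood apart for ONT.14146 (0.833).

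In sham, mouse 2 was apart for ONT.12057 (0.8833), ONT.1401 (0.888), the coupled group of 15 loci (0.84) and ONT.10727 (0.8563), and mouse 1 for ONT.17093 (0.9232), ONT.1435 (0.8743) and ONT.11466 (1.0). Mouse 3 was apart for ONT.8607 (0.8693), ONT.17379 (0.8365) and ONT.4405 (1.0). For ONT.11466 and ONT.4405 in sham the gap is that between 1 count and 0.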

How the results depend on the processing

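Described loci called against sham numbered 57 with vehicle and 637 with lactate. No named value with an adjusted p under 0.05 changed sign under the alternatives run, whereas 39 of the others did, most of them near 0. Among them, with lactate against vehicle, ONT.3242, ONT.14070, ONT.3164 and ONT.20178 had log2 differences of 2.07, 0.65, 1.34 and 1.18 and, at lowest, of -0.33, -1.01, -0.77 and -0.50. With DESeq2 the vehicle calls were 97 (89 up, 8 down, and 56 up without GO terms), and with limma 101 (94, 7 and 61). With unadjusted p-values they were 453 (330 up, 123 down, 70 up with and 260 without GO terms), and 1090 with lactate (917, 173, 119 and 798). Without GO terms 26 rose with vehicle, 14 at a limit of 2 CPM and 44 with no filter. The 41 loci down with lactate became 23 at 2 CPM, 17 in one fit of all mice and 24 at a fold change of 2. Lactate against vehicle gave 18 calls with DESeq2, all up and without GO terms, and 380 at unadjusted p-values (333 up, 47 down, 30 up with and 303 without GO terms).

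Leaving out one mouse gave 27 to 90 calls with vehicle (27 to 75 up, 0 to 15 down, 4 to 44 up without GO terms) and 365 to 605 with lactate (340 to 576 up, 15 to 46 down, 287 to 497 up without GO terms), with the fewest up without lactate 2. Between the ischemic groups it gave 0 to 1, the 1 call being a locus without GO terms that was up without vehicle 3. The mCG1044012 family kept 20 to 22 of its 22 calls against sham, and ONT.10291 had an adjusted p of up to 0.0551. ONT.3242 had 0.0657 with limma, and ONT.9976 had 0.364 in one fit of all mice.

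The summed share of the loci was 8.85, 9.04 and 10.2% of the counts of known genes, and 7.31, 7.35 and 7.92% with the coupled loci counted once, where sham 2 (7.91%) lay above 3 of the 4 lactate-treated mice. In lactate-treated mice it was 8.93% for described loci only and 8.47% without the 7 families, where sham 2 (8.39%) lay above lactate 2 (8.29%). At 2 CPM 2353 loci would be described, at 0.5 CPM 5387, with 6 mice 3217, and with all 12 mice 1894.

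Mouse numbers share only a number between groups, since deviations of mice with the same number correlated at -0.15 to 0.16. With the replicate block, 42 loci were called with vehicle (41 up, 1 down, 15 up without GO terms), 707 with lactate and 0 between the ischemic groups. For named loci, 3103 values were on the same side of the limits, 103 fell below them and 11 passed newly. Where causes of these differences are not given, they were not tested.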

Other observations

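Identical counts in all 12 mice were found in 4 groups that hold 10 described loci. The number of described loci at 1 CPM or more was 2815 to 2987 per sham mouse, 2914 to 3157 per vehicle-treated mouse and 3150 to 3283 per lactate-treated mouse, and sham and lactate-treated mice did not overlap. For loci with GO terms these numbers were 911 to 916, 899 to 933 and 903 to 962.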
